A study of Arabidopsis thaliana with 2 samples.

Results

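The 10 genes described here take up sulfate or respond to a shortage of sulfur in Arabidopsis thaliana: the sulfate transporter genes SULTR1;1, SULTR1;2 and SULTR2;1, the adenosine 5′-phosphosulfate (APS) reductase genes APR1, APR2 and APR3, and the sulfur deficiency genes LSU1, LSU2, SDI1 and SDI2. They were chosen by name, through their locus tags, from 27432 protein-coding genes on the 5 nuclear chromosomes. What was measured at them is the position of peaks from chromatin immunoprecipitation with sequencing (ChIP-seq), which recovers DNA fragments bound by a protein with an antibody and sequences them. The protein was TGA1, one of the TGA group of bZIP transcription factors, fused to green fluorescent protein (TGA1-GFP), and the tissue was root. Of the 2 libraries, 1 was made with a GFP antibody and 1 with IgG, an antibody without a specified target, both from TGA1-GFP plants. The promoter that drove the fusion, the age of the plants and their nitrogen and sulfur supply are not stated in the labels.

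Plants take up sulfate through root transporters, activate it with ATP to APS and reduce APS to sulfite, which is reduced further to sulfide and built into cysteine. When sulfate runs short, transporter and reductase genes and a group of marker genes are switched on. The transcription factor SLIM1 drives much of this response at the transporter and marker genes. Cysteine synthesis joins reduced sulfur to a carbon skeleton that carries nitrogen, so sulfate reduction is known to respond to nitrogen supply as well. The series asks where TGA1 sits on the genome, in a study of how roots respond to nitrogen signals from the shoot.

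The data were 1 list of 8002 peaks with a median width of 434 bp, without read counts, heights or p-values. Neither antibody had a replicate library, no test between libraries was possible, and the depth is unknown. A peak was counted at a gene when it overlapped by at least 1 bp the gene or the 3000 bp on either side of it. The width of a peak and its place in the list are given below as descriptions only. The file does not say what its order stands for. The gene table gave no strand, so a peak outside a gene is described by its side, lower or higher in coordinate, and not as upstream or downstream. All positions are on TAIR10.

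TGA1-GFP peaks lay at 9 of the 10 genes, and APR1 was the one without. The same rule gave a peak to 40.5% of all protein-coding genes. The genes together had 16 peaks, all different: 1 gene had none, 4 had 1, 3 had 2 and 2 had 3. At least 2 peaks lay at 5 of the 10 genes, against 16.1% of all protein-coding genes, and at least 3 lay at 2, against 5.79%. The mean was 1.6 peaks per gene, against 0.646 over all protein-coding genes. The 10 genes had a median length of 2271.5 bp and all protein-coding genes one of 2078 bp. The 3 transporter genes were longer, at 6001, 5706 and 4120 bp, which widens the stretch searched around them; the part of gene length in the counts was not tested. No test was made of these counts, because each antibody had 1 library. The genes were also picked with earlier results of these data known.

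**Figure D1:**
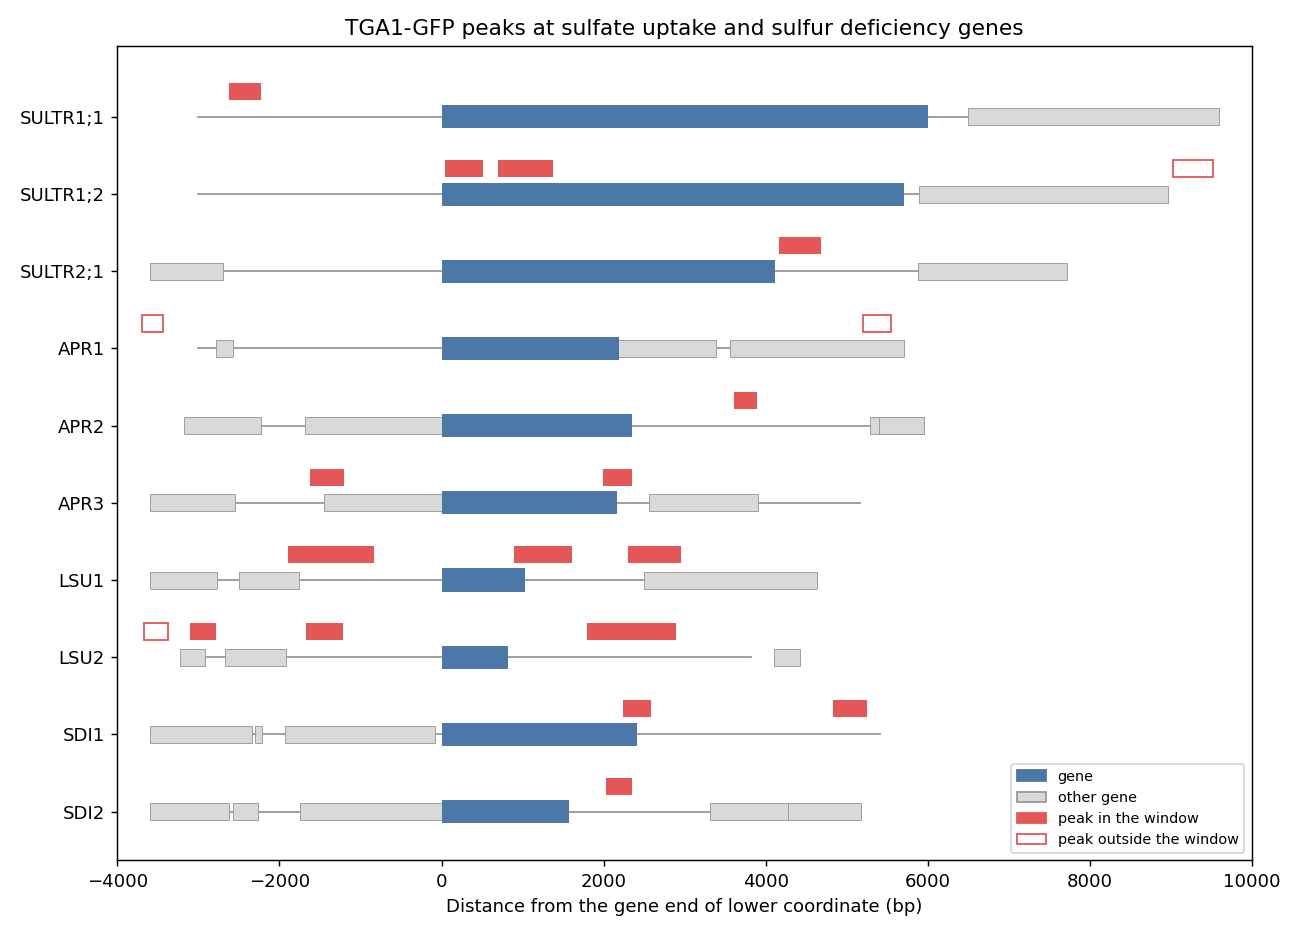
Peaks at the 10 genes, drawn to scale against the distance in bp from each gene's end of lower coordinate. Blue boxes are the genes, grey boxes other annotated genes (clipped 3600 bp from the gene, and hidden where they overlap it), filled red boxes peaks within the gene or 3000 bp of it (the grey line), and open red boxes peaks beyond; APR1 has only open boxes.

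The count rose with the flank allowed. A peak touched the gene itself at 4 of the 10 genes (SULTR1;2, APR3, LSU1 and SDI1), against 14.9% of all protein-coding genes. Within 1000 bp there were 7 of 10, against 26.7%; SULTR2;1, LSU2 and SDI2 joined at this distance. Within 2000 bp there were 8 of 10, against 33.6%, with APR2 added, and within 5000 bp all 10, against 51.8%. The distance from a gene to the nearest peak midpoint had a median of 460.5 bp over the 10 genes and of 4884.5 bp over all protein-coding genes.

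**Figure D2:**
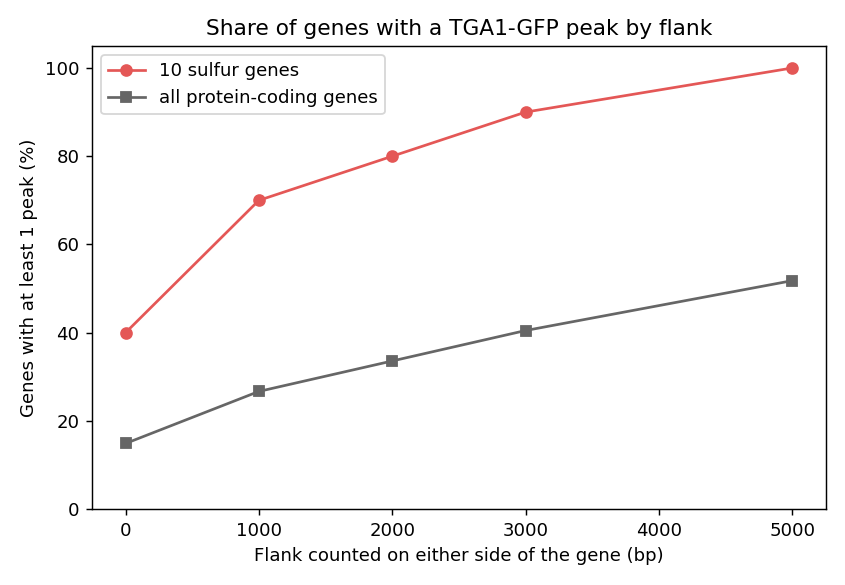
Percentage of genes with at least 1 TGA1-GFP peak (vertical axis) for flanks of 0 to 5000 bp on either side of the gene (horizontal axis), for the 10 sulfur genes (red circles) and all 27432 protein-coding genes (grey squares). At a flank of 3000 bp the values are 9 of 10 genes and 40.5%.

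The 3 sulfate transporter genes each had a peak, in 3 different arrangements. SULTR1;1 (AT4G08620) and SULTR1;2 (AT1G78000) encode the high-affinity transporters that bring sulfate from the soil into the root. At SULTR1;1 the only peak was 406 bp wide (chromosome 4, 5497684 to 5498089, place 4163) and lay 2223 bp from the gene on its lower side. No other protein-coding gene had this peak within 3000 bp. On that side the next protein-coding gene was 29846 bp away, and only 2 peaks had their midpoint within 50 kb of SULTR1;1, or 18.9 per Mb, against a median of 69.8 per Mb around protein-coding genes (quartiles 39.8 and 108).

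SULTR1;2 was the only one of the 10 genes with peaks lying wholly inside it. The first was 469 bp wide (chromosome 1, 29327556 to 29328024, place 3705) and began 41 bp inside the gene's end of lower coordinate. The second was 681 bp wide (29328216 to 29328896, place 7105) and began 701 bp inside the same end. Both peaks therefore sat at one end of a gene of 5706 bp, and no other protein-coding gene reached them. In contrast to SULTR1;1, the surroundings were crowded, with 19 peak midpoints within 50 kb, or 180 per Mb. A further peak of 493 bp lay 3320 bp beyond the other end, outside the range, and was nearest to the neighbouring gene AT1G78010.

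SULTR2;1 (AT5G10180) encodes a low-affinity transporter that moves sulfate within the vascular tissue. Its only peak was 520 bp wide (chromosome 5, 3197185 to 3197704, place 6164) and began 48 bp outside the gene on the higher side. The midpoint was 308 bp from the gene, closer than in 84.4% of all protein-coding genes. The peak lay between SULTR2;1 and AT5G10190 and was also within 3000 bp of the latter.

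The APR genes encode the enzymes that reduce APS to sulfite, a step that carries much of the control over sulfate assimilation. They had 3 peaks in all, of 280 to 429 bp, none wider than the median of all peaks. APR1 (AT4G04610) had none in range: the closest was 343 bp wide (chromosome 4, 2330078 to 2330420, place 3076), 3013 bp from the gene, so that it started 14 bp beyond the limit. It lay entirely inside ATG8B, a gene of the autophagy machinery. A peak of 256 bp (place 7314) lay 3439 bp away on the other side. APR1 also stood in a sparse region, with 3 peak midpoints within 50 kb, or 29.4 per Mb.

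APR2 (AT1G62180), the gene of the main APS reductase isoform of leaves, had 1 peak of 280 bp (chromosome 1, 22979139 to 22979418, place 5770). It was the narrowest of the 16, and 90.2% of all peaks were at least as wide. It lay 1253 bp from the gene on the higher side, in gene-free sequence between APR2 and AT1G62190. APR2 was its nearest gene.

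APR3 (AT4G21990) was the APR gene with the closest peak. A peak of 349 bp (chromosome 4, 11659005 to 11659353, place 3037) covered the last 163 bp of the gene on the higher side, and its midpoint was 12 bp outside. A second peak of 429 bp (11655380 to 11655808, place 1392) lay 1199 bp from the gene on the lower side. That second peak overlapped 247 bp of the neighbouring autophagy gene APG8A, also known as ATG8A, and was nearer to it than to APR3. Within 50 kb, APR3 had 16 peak midpoints, or 157 per Mb, the highest density of the APR genes.

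The LSU genes, which encode small proteins that accumulate under low sulfur, had the widest peaks and the largest number. LSU1 and LSU2 had 3 peaks each, 6 of the 16, and the only peaks of at least 1000 bp. A peak that wide lay at 2 of the 10 genes, against 5.67% of all protein-coding genes. One of at least 500 bp lay at 4 (SULTR1;2, SULTR2;1, LSU1 and LSU2), against 19.7%. Both genes stand beside another LSU gene: LSU1 beside LSU3, 1760 bp away, and LSU2 beside LSU4, 1914 bp away. Of the 6 peaks, 4 were also within 3000 bp of LSU3 or LSU4.

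At LSU1 (AT3G49580), a peak of 721 bp (chromosome 3, 18375801 to 18376521, place 1898) covered 140 bp of the gene at its end of higher coordinate, with its midpoint 221 bp outside. A peak of 1064 bp (18373010 to 18374073, place 1466) lay on the lower side, between LSU1 and LSU3. It overlapped 138 bp of LSU3 and left 834 bp to LSU1. The third, of 651 bp (18377215 to 18377865, place 298), lay 1274 bp away on the higher side. It was the earliest of the 16 in the list and overlapped 457 bp of ATG13, which encodes an autophagy regulator. Of the 3 peaks, the one of 721 bp was thus the only one with LSU1 as its nearest gene.

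At LSU2 (AT5G24660), no peak touched the gene. The widest of the 16 peaks, 1108 bp (chromosome 5, 8445069 to 8446176, place 1261), began 967 bp from the gene on the higher side, and 7.0% of all peaks were at least as wide. It stood in the gene-free sequence of 3276 bp between LSU2 and EMB2820, nearer to LSU2. Between LSU2 and LSU4 lay a peak of 463 bp (8441605 to 8442067, place 4654), with its midpoint 1443 bp from LSU2 and 472 bp from LSU4. The third, of 322 bp (8440179 to 8440500, place 4924), lay beyond LSU4 and 2778 bp from LSU2, and overlapped the long non-coding RNA gene AT5G03815. Both LSU neighbourhoods therefore had 1 peak in the gap between the neighbouring LSU genes and at least 1 peak on the far side of LSU1 or LSU2. They differed in width in the gap (1064 against 463 bp).

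SDI1 (AT5G48850) and SDI2 (AT1G04770) encode proteins induced by sulfur deficiency, of which SDI1 is known to restrain the synthesis of glucosinolates, sulfur-rich defence compounds. They had 3 peaks in all, of 327 to 421 bp, none wider than the median of all peaks. At SDI1 a peak of 343 bp (chromosome 5, 19807677 to 19808019, place 5847) covered 177 bp of the gene at its end of higher coordinate, and its midpoint was 5 bp inside. A second peak of 421 bp (19810267 to 19810687, place 2713) lay 2413 bp away on the same side and was nearer to AT5G48860. At SDI2 the only peak was 327 bp wide (chromosome 1, 1338299 to 1338625, place 7600) and lay 449 bp from the gene on the higher side. It was the last of the 16 in the list.

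The widths of the 16 peaks ran from 280 to 1108 bp with a median of 446 bp, and 8 of the 16 were wider than the median of all peaks, 434 bp. At least 1000 bp wide were 2 of the 16, against 9.14% of all peaks. Their places ran from 298 to 7600, and 8 of them were among the first 4001 places. The LSU peaks took 3 of the 4 earliest places among the 16, and the transporter peaks were at places 3705 to 7105. Of the 16, 5 touched the sulfur gene they were counted for, 4 touched another gene and 7 touched no annotated gene. For 10 of them the sulfur gene was the nearest protein-coding gene, and for 6 another gene was nearer. Matching shares over all peaks were not counted for these touching and nearest-gene counts. Another protein-coding gene within 3000 bp was found for 13 of the 16; among all peaks, 75.8% lay within 3000 bp of at least 2 protein-coding genes. A peak list alone does not say which of these genes, if any, TGA1 acts on.

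**Figure D3:**
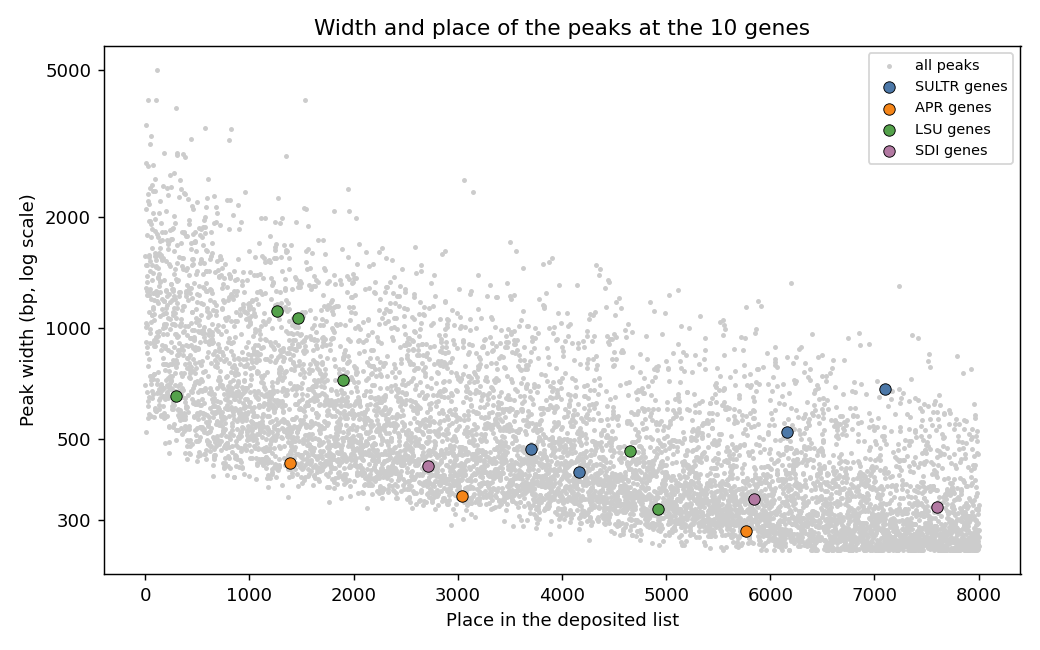
Width in bp (vertical axis, log scale) against place in the deposited list (horizontal axis) for all 8002 peaks (grey) and the 16 peaks at the sulfur genes (coloured by gene group). The 2 widest coloured points, 1108 and 1064 bp, are LSU peaks, and the coloured points run through the whole list.

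Beyond the 10 genes, 41 other genes of sulfur metabolism and its regulation were counted by the same rule, and 25 of them had a peak, 61.0% against 40.5% of all protein-coding genes. A peak touched the gene itself at 13 of the 41, against 14.9% of all protein-coding genes, and 10 of the 41 had at least 2 peaks, against 16.1%. LSU3 and LSU4 are among the 25 and share peaks with LSU1 and LSU2. The 41 genes were listed with earlier results of these data known, and no test was made of these counts.

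Of the 9 other sulfate transporter genes, 4 had a peak, 44.4% against 40.5% of all protein-coding genes. The same 40.5% stands beside each of the role counts below, which rest on few genes. SULTR3;1 (AT3G51895), which encodes a chloroplast transporter, had the widest, 675 bp at place 439 (chromosome 3, 19256002 to 19256676). Its midpoint was 417 bp from the gene. SULTR4;1 (AT5G13550), which encodes a transporter that releases sulfate from the vacuole, had one of 574 bp that touched the gene. At its relative SULTR4;2 (AT3G12520) the peak of 548 bp had its midpoint 3161 bp away and was nearer to HCHIB. SULTR2;2, SULTR3;2, SULTR3;3, SULTR3;4 and SULTR3;5 had none.

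Of the 5 genes of sulfate activation and sulfite reduction, 3 had a peak, and in all 3 a peak touched the gene. ATPS1 (AT3G22890) and ATPS3 (AT4G14680), which encode ATP sulfurylases that make APS, had widest peaks of 605 and 509 bp. The one of 605 bp did not touch ATPS1, and its midpoint was 778 bp away. SIR (AT5G04590), the sulfite reductase gene that acts after the APR enzymes, had one of 412 bp with its midpoint inside the gene. ATPS2 and ATPS4 had none. All 4 APK genes, whose enzymes phosphorylate APS and lead it away from reduction towards sulfated compounds, had a peak. The widest was 605 bp at APK3 (AT3G03900), followed by 574 bp at APK1 (AT2G14750, place 382) and 419 bp at APK4 (AT5G67520). The peak at APK3 did not touch the gene, and its midpoint was 843 bp away.

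Of the 10 genes of cysteine and glutathione synthesis, 6 had a peak. SERAT2;1 (AT1G55920), a serine acetyltransferase gene, had the widest of the 41 genes, 1147 bp (chromosome 1, 20911117 to 20912263, place 2435), which touched the gene. It was nearer to AT1G55917. GSH1 (AT4G23100), whose enzyme makes the first step of glutathione synthesis, had 2 peaks. The widest was 578 bp with its midpoint 995 bp away, and the narrower one touched the gene. SERAT2;2 (AT3G13110) had one of 480 bp that was nearer to AT3G13120. GSH2, OASB, SERAT3;1 and SERAT3;2 had none.

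Of the 5 further sulfur starvation genes, 3 had a peak. BGLU28 (AT2G44460), a beta-glucosidase gene induced by low sulfur, had 4 peaks, the widest 676 bp at place 165 (chromosome 2, 18345112 to 18345787). LSU3 had 2 peaks and LSU4 had 3, the widest 1064 and 463 bp. All were described above except 1 at LSU4. That one was 293 bp wide (chromosome 5, 8439609 to 8439901, place 5186), with its midpoint 846 bp from LSU4. GGCT2;1 and SHM7 had none. Of the 8 regulators, 5 had a peak, with widths of at most 425 bp. SLIM1 (AT1G73730) had one of 365 bp at place 7076, which was nearer to AT1G73740. Among the MYB factors of glucosinolate synthesis, the widest peaks were 425 bp at MYB34 (AT5G60890), 421 bp at MYB51 (AT1G18570) and 404 bp at MYB28 (AT5G61420). The one at MYB34 was nearer to RLK1 and the one of 404 bp at MYB28 nearer to AT5G61412. MYB28 had 2 peaks, and the narrower one touched the gene. HY5, a regulator of APR genes, had none, nor did MYB29 and MYB76.

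**Figure D4:**
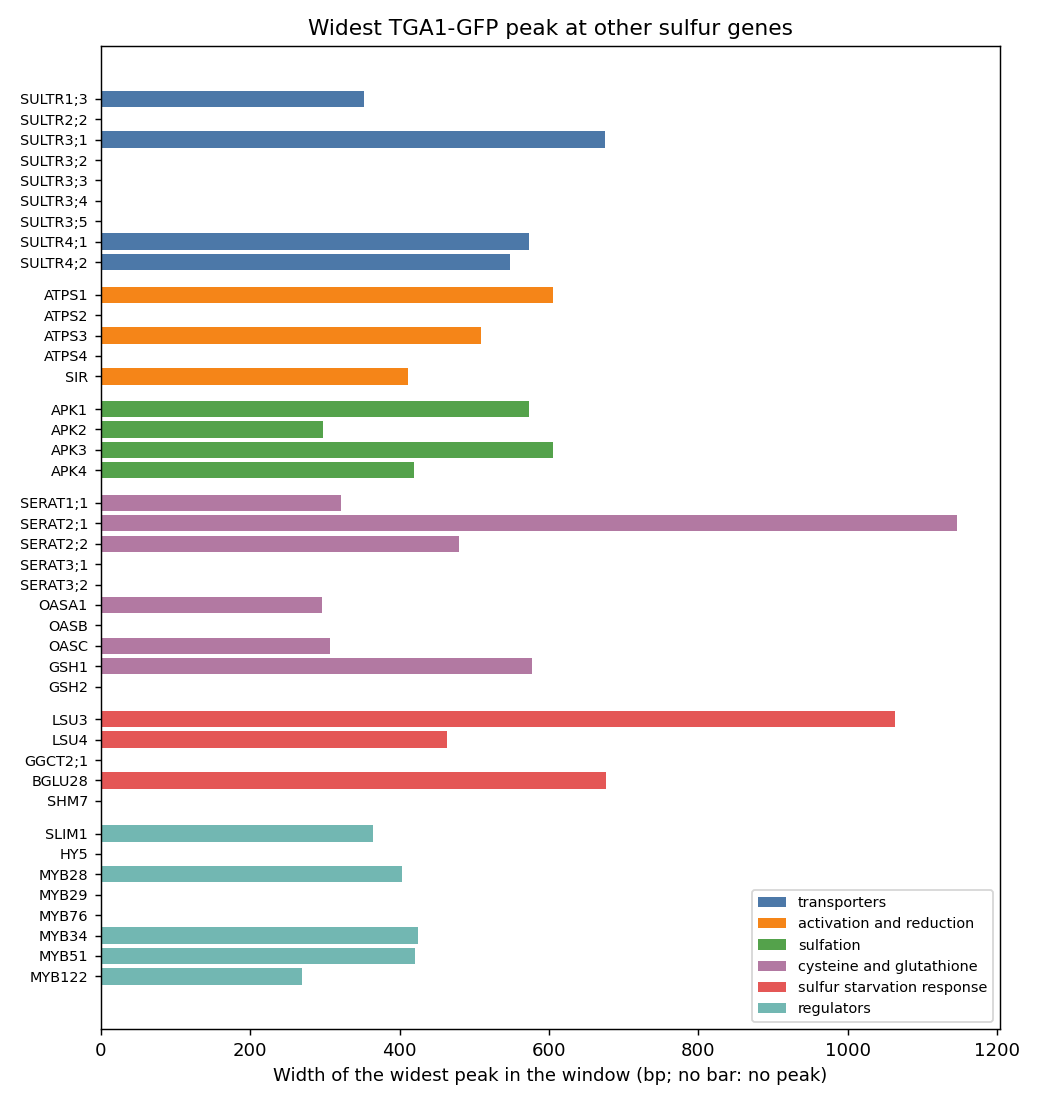
Width in bp of the widest peak within the gene or 3000 bp of it (horizontal axis) for 41 other sulfur genes, coloured by role; a gene without a bar had no peak. SERAT2;1 (1147 bp) and LSU3 (1064 bp) have the longest bars, and all 4 APK genes have one.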

How the data were processed

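Per the labels' protocols, roots of TGA1-GFP plants were cross-linked with 1% formaldehyde, chromatin was recovered with GFP antibodies and 100 ng of DNA went into the libraries. Bowtie2 and MACS2 with TAIR10 are named in the submitters' processing notes. Neither versions and thresholds nor the use of the IgG library are stated there. The deposited list has 3 columns: chromosome, start and end. Its starts were taken as BED starts, and 1 was added for printing.

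Genes came from a RefSeq table of TAIR10.1, whose nuclear chromosomes were taken to be those of TAIR10. With no shift, 25.3% of peak midpoints lay inside protein-coding genes; moved by 5000 bp either way, 62.0 and 62.2% did. The table holds all 10 genes, 8 under the name used here (SDI1 is listed as ATSDI1 and SDI2 by locus tag), and all 41 list genes, 30 under the name used here. No sequence or strand was used, so the planned motif description was not run.

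Named are all 10 genes, neighbours that one of their peaks touches or lies nearer to, and, per role of the list, up to 3 genes with the widest peaks; the rule also covered every gene sharing such a peak, of which only some are named. List genes without a peak, SLIM1 and genes nearer to a list gene's peak were named after their values were seen. The members and lists were chosen with earlier results of these data known. Overlap code was tested on simulated data. Python 3.11.15, numpy 2.4.6, pandas 2.3.3 and matplotlib 3.10.9 were used.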

Additional observations from a re-analysis of the deposited data

How the results depend on the processing

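The 10 genes gave 9 with a peak and 16 peaks in all, and the other 41 sulfur genes gave 25. A shift of starts by 1 base, an alternative added after the data were seen, changed none of these counts. With the wider of 2 equal parts of the peaks, 4 of the 10 genes (all protein-coding genes: 24.2%), 8 peaks and 13 of the 41 genes were left, and with the first 4001 places 5 of the 10 (24.6%), 8 peaks and 14 of the 41. With peaks touching the gene only, 4 of the 10 (14.9%), 5 peaks and 13 of the 41 were left. Midpoints from 1000 bp outside to 200 bp inside a gene end gave 5 of the 10 (22.8%) and 5 peaks. A flank of 1000 bp gave 9 peaks. Counting each peak only for its nearest protein-coding gene gave 9 of the 10 genes (20.9%) on 10 peaks. The fewer peaks or narrower windows are part of how these alternatives are built. The other flanks and overlap rules moved the counts by less than 1.5 times; a flank of 5000 bp gave 10 of the 10. No paired analysis was possible because each antibody had 1 library and the results come from no test. Depth is unknown, so the absence of a peak, as at APR1, does not show absence of TGA1.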

Other observations

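The MIR395 genes, added after the data were seen, encode the microRNA that is induced by low sulfur and targets ATP sulfurylase transcripts and SULTR2;1. A single peak of 355 bp at place 2089 lay within 3000 bp of MIR395a, MIR395b and MIR395c, with its midpoint 2680, 1398 and 1112 bp from them. MIR395d, MIR395e and MIR395f had no peak within 3000 bp, and their nearest midpoints were 3330, 6127 and 5425 bp away. The same rule gave a peak to 40.5% of all protein-coding genes, and no share was counted for microRNA genes.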
